A study of Mus musculus with 7 samples.

Results

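The myosin genes of the mouse were described in growing oocytes with and without mitofusin 1, the outer membrane GTPase with which mitochondria fuse. Members were taken by gene symbol alone, as every symbol that starts with Myh, Myl or Myo followed by a digit. The table listed 44 such genes among 22877, comprising 13 conventional heavy chains, 8 light chains and 23 unconventional myosins. GENCODE M21 holds 50 genes of this naming pattern. The other 6, namely Myh8, Myl1, Myl3, Myl10, Myo1f and Myo1g, were not analysed here.

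RNA was sequenced from oocytes taken out of the secondary follicles of 8-week-old C57BL/6J females. Mfn1-/- females carried floxed Mfn1 on both alleles together with Zp3-Cre, so that deletion was driven by a promoter of growing oocytes, and WT littermates served as controls. The labels list 3 Mfn1-/- and 4 WT libraries of 5 pooled oocytes each, while the study's text gives n = 3 for each genotype. The total over libraries in the table was within 1% of 3 Mfn1-/- means plus 4 WT means in 100% of the genes, so each mean below is the authors' mean over 3 Mfn1-/- or 4 WT libraries. Each gene had 1 value per genotype. From these means alone no spread between libraries, depth or error can be given. The p-values of the authors' own comparison were not used here, so the differences below are described without a test.

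Mfn1 itself had a mean normalized count of 0.0577 in Mfn1-/- and of 0.616 in WT oocytes. All 13 oocyte markers on the marker list had means of at least 0.679 in both genotypes, with Zp3 at 708 and 609. The 13 granulosa cell markers with a row summed to 2.41 and 1.79 in Mfn1-/- and WT oocytes, and 4 of them had the higher mean in Mfn1-/- oocytes. Inha carried most of both sums (1.87 and 0.954), and the other 12 summed to 0.540 and 0.838, lower in Mfn1-/- oocytes. The means of all genes summed to 142576 and 130160 in Mfn1-/- and WT oocytes. Genes with a mean of at least 1 over the 7 libraries had a median log2 difference of 0.16, so values of a single gene are best read against this shift.

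Myosins are motors that pull on actin filaments. A conventional, or class II, myosin is a pair of heavy chains, each with an ATP-splitting head and a long coiled tail, and each head carries an essential and a regulatory light chain. Phosphorylation of the regulatory light chain by light chain kinases switches on the smooth muscle and nonmuscle forms, which drive cortical tension and cytokinesis in the oocyte and embryo. Unconventional myosins do not build thick filaments, and they carry vesicles, tether membranes or hold organelles to actin. In mouse oocytes, class V myosins move Rab11a-marked vesicles along an actin network that the nucleators formin 2 and Spire assemble.

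The regulatory light chains of nonmuscle and smooth muscle myosin are nearly alike, and their sequences are shown because Myl12a and Myl12b, which lie side by side, differed in their means. The first 240 coding bases are given 5′ to 3′ from the GENCODE M21 transcripts. Capitals in Myl12b and Myl9 mark bases that differ from Myl12a, and capitals in Myl12a mark bases at which either of the others differs.
Myl12a: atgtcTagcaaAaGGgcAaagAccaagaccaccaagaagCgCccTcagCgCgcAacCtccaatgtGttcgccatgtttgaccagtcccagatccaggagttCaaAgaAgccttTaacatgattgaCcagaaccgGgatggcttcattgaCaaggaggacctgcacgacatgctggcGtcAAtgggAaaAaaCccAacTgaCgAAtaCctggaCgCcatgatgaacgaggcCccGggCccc
Myl12b: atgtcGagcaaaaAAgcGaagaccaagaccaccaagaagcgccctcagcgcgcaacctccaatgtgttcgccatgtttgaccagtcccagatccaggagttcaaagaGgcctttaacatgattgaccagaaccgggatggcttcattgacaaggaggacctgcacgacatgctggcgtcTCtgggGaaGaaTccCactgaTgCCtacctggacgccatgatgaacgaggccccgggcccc
Myl9: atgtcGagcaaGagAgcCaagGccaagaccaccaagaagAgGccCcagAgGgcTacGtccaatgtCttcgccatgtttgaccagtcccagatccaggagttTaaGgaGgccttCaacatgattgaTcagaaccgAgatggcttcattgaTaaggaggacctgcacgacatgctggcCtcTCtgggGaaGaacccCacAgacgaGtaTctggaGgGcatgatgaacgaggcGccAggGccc
In these 240 bases Myl12b differed from Myl12a at 14 positions and Myl9 at 34. Over the whole coding sequence of 516 bases, Myl12a and Myl12b were 96.5% identical, with an identical run of up to 102 bases, and their proteins were 97.7% identical.

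The essential light chain gene Myl6 has processed pseudogenes, which are intronless copies of its mRNA in the genome. Coding bases 157 to 306 of Myl6 and the matching stretch of Gm5526, the copy with the highest means, are shown because no base of the 150 differs, hence no capitals.
Myl6: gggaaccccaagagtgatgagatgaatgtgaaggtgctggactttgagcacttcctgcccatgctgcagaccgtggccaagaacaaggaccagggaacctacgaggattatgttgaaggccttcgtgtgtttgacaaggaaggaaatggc
Gm5526: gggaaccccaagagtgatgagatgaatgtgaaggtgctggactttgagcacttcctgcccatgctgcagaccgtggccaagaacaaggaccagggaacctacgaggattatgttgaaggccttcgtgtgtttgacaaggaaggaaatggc
A read of 75 bases from this stretch fits both genes equally well.

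Among the skeletal muscle heavy chains, the genes of the chromosome 11 cluster share long exonic stretches. Coding bases 3328 to 3477 are shown because they were the window of 150 bases in which Myh2, Myh1 and Myh4 were most alike, with capitals at the position where Myh2 and Myh4 differ.
Myh2: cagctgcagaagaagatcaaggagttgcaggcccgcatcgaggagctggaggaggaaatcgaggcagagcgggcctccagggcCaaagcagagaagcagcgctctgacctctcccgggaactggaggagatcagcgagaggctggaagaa
Myh1: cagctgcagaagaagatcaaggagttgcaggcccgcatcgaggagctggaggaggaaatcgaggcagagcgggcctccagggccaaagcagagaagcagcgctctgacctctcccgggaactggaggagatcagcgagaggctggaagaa
Myh4: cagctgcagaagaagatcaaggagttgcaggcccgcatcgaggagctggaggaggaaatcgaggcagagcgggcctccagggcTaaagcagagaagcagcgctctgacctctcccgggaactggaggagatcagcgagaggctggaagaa
Myh1 had 0 differences from Myh2 in this window and Myh4 had 1. Myh2 was 91.0% identical to Myh1 and 88.1% identical to Myh4 over the coding sequence.

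Myosin transcripts were few in both genotypes. The 44 means summed to 64.7 and 60.3 in Mfn1-/- and WT oocytes, a share of 0.0454% and 0.0464% of the sum over all genes. Light chains made up 93.9% of the family's sum in Mfn1-/- and 90.9% in WT oocytes, and Myl12a alone made up 67.7% and 73.9%. Over the 7 libraries, 4 members had a mean of at least 1, namely Myl12a, Myl6, Myl12b and Myh2, which is 9.09% of the members against 27.2% of all genes. Another 12 had a mean from 0.1 to 1. The other 28 members (63.6%, against 39.5% of all genes) lay under 0.1, and 9 of these had both means under 0.02, close to 0.01, the lowest mean in the table. The ranks of the first 4 were the same when each mean was divided by the length of the transcript with the longest coding sequence, at 22.8 per kb for Myl12a, 14.1 for Myl6, 1.44 for Myl12b and 0.196 for Myh2. On that scale Myl4 (0.142) and Myl2 (0.114) came next, ahead of Myo1c (0.0931). The scaling of the authors' counts is not given. If they were already divided by length, the values per kb would correct for it again.

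**Figure D1:**
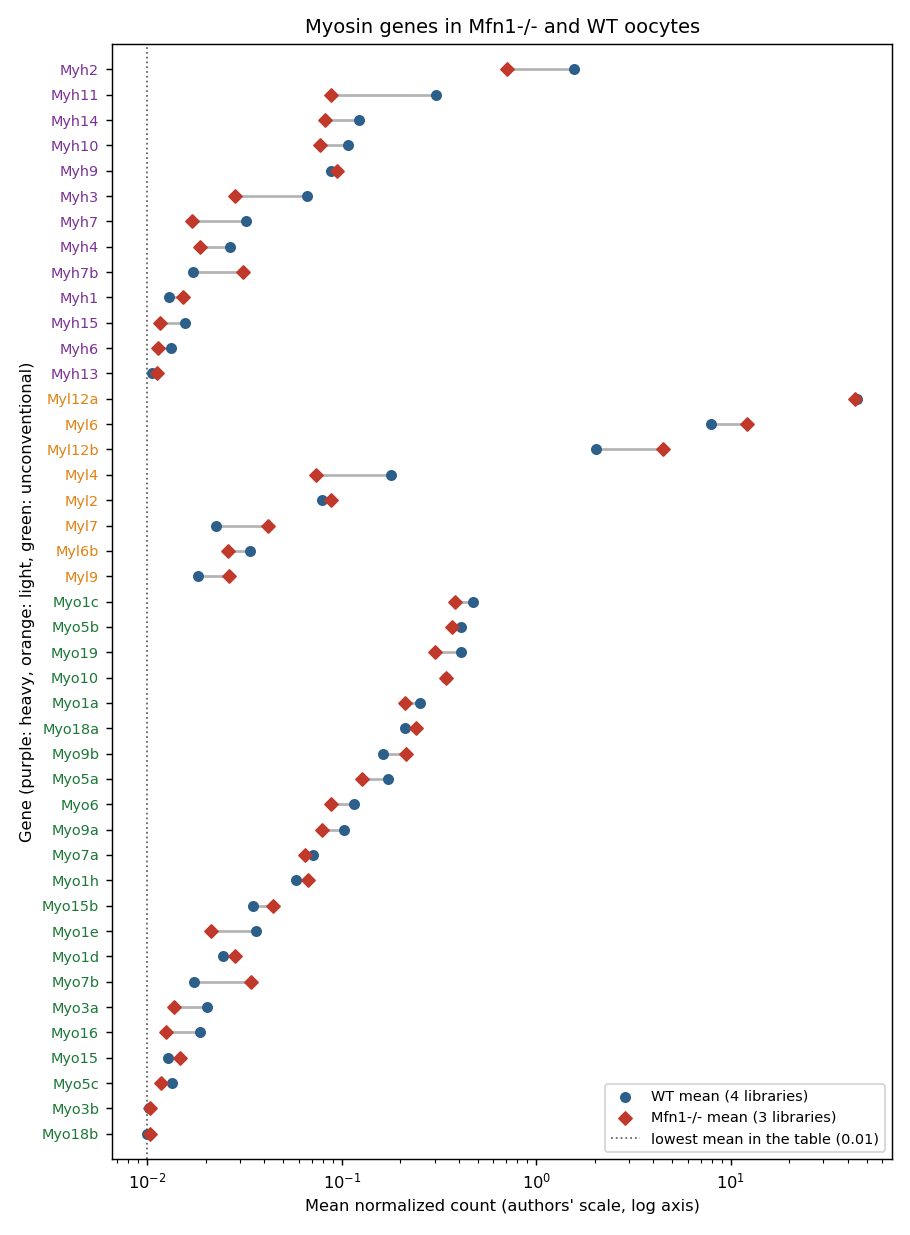
Mean normalized count of 43 of the 44 myosin genes on a log axis, with a circle for the WT mean and a diamond for the Mfn1-/- mean and genes ordered within each class by their mean. Myl12a, Myl6 and Myl12b stand apart from the rest, and Myh2 is the only heavy chain gene with a WT mean above 1.

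The log2 difference was taken as log2 of the Mfn1-/- mean plus 0.1 over the WT mean plus 0.1, which shrinks the differences of low genes, and a gene past 2-fold had a log2 difference beyond 1 in either direction. Of the 44 members, 3 were past 2-fold (6.82%), against 7.61% of all genes, a share near the background, and 5.46% of the protein-coding genes, to which all members belong. Myl12b was the member with a higher mean, and Myh11 and Myh2 were those with a lower mean. Among all genes, 4.87% were past 2-fold with a higher and 2.75% with a lower mean. Since low genes seldom pass with this pseudocount, the members were also read by level. Among the 28 members with a mean under 0.1, 0 were past 2-fold, against 1.69% of all genes at that level. From 0.1 to 1 it was 1 of 12, against 13.8%, and at 1 or more it was 2 of 4, against 8.69%. Myh11 in the former and Myh2 in the latter reached that level through WT, as their Mfn1-/- means were 0.0879 and 0.704. Of the members past 2-fold, Myh2 lay nearest the threshold at −1.05, and of those short of it the nearest were Myl4 at −0.68 and Myl6 at 0.62.

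By direction alone, 19 members had a higher and 25 a lower mean in Mfn1-/- oocytes (56.8% lower, against 42.9% of all genes). With the median of genes at a mean of at least 1 subtracted, the split was 6 above and 38 below 0. The 0.16 subtracted came from those genes, while all genes with a mean under 0.1 had a median of 0.005. With the sums of both genotypes made equal, the split was 14 and 30. The median of all genes was itself −0.12 with the median subtracted and −0.01 with equal sums. The direction of 13 members, most of them of small difference, turned in at least 1 of these settings. The median log2 difference was −0.09 for heavy chains, 0.08 for light chains and −0.05 for unconventional myosins, against 0.04 for all genes. The median of the light chains was −0.08 once the median of genes at a mean of at least 1 was subtracted, against −0.12 for all genes.

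**Figure D2:**
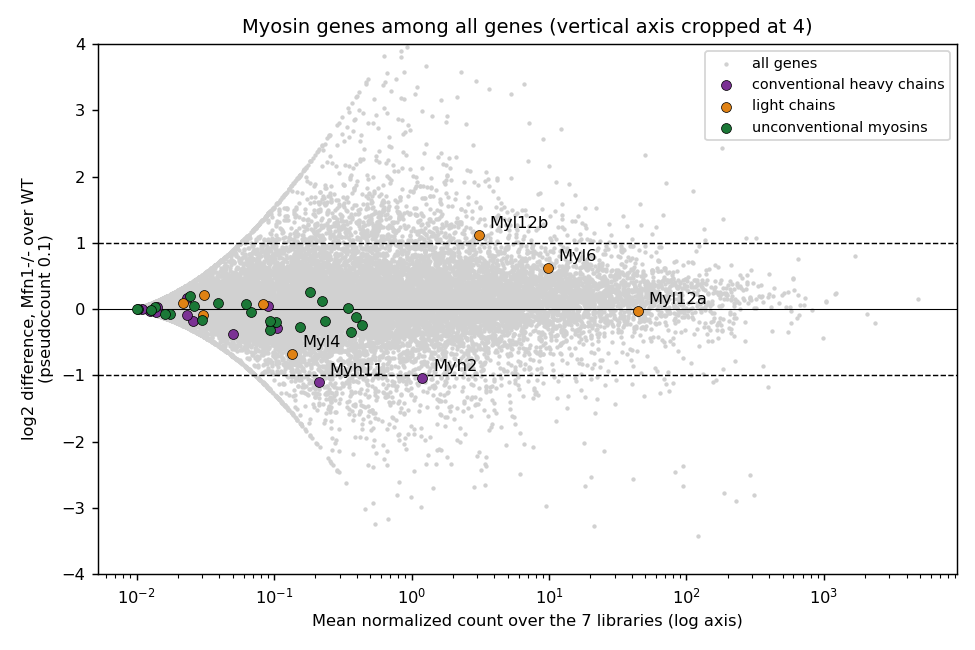
Log2 difference between Mfn1-/- and WT means (pseudocount 0.1) against the mean over the 7 libraries (log axis), with all genes in grey, the myosin classes in colour and dashed lines at 2-fold. Myl12b lies above the upper line, Myh11 and Myh2 lie below the lower one, and the unconventional myosins stay between −0.34 and 0.26.

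The regulatory light chains were led by Myl12a. It had means of 43.8 and 44.6 in Mfn1-/- and WT oocytes, a log2 difference of −0.03, and lay at the 97.4th percentile of all genes. Myl12b had means of 4.51 and 2.03 in Mfn1-/- and WT oocytes, 2.22 times as high in Mfn1-/- oocytes and a log2 difference of 1.11. The Mfn1-/- mean was thus the higher one for Myl12b and nearly level with WT for Myl12a. The ratio of Myl12a to Myl12b was 9.71 in Mfn1-/- and 22.0 in WT oocytes, while their sum was 48.3 and 46.6. Myl12b fell short of 2-fold once the general shift was removed, at 0.95 with the median subtracted and at 0.99 with equal sums, and its mean remained the higher one in Mfn1-/- oocytes in both.

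Both genes lie on the minus strand of chromosome 17 in GRCm38, Myl12b at chr17:70973133-70990890 and Myl12a at chr17:70993656-71002878. GENCODE M21 gives a further locus named Myl12b, at chr17:70974119-71002208, which shares exon sequence with Myl12a on the same strand. Of the 1863 windows of 75 bases in the Myl12a transcript, 501 (26.9%) occurred unchanged in a transcript named Myl12b. In the other direction, 73 of 2069 windows (3.53%) of the main Myl12b transcript occurred in another gene, 64 of them in Myl12a. The annotation on which the authors counted is not named, so how reads were split between these genes is uncertain.

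The remaining regulatory light chains are muscle forms. Myl9, the smooth muscle form, had means of 0.0264 and 0.0182 in Mfn1-/- and WT oocytes. Myl2, the ventricular and slow muscle form, had 0.0883 and 0.0792, and Myl7, the atrial form, had 0.0417 and 0.0226. All 3 lay under 0.1 in both genotypes, and their log2 differences, from 0.07 to 0.21, were in the range where a mean moves by little in absolute terms. The direction of Myl2 and Myl9 turned with the median subtracted.

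Among the essential light chains, Myl6, the nonmuscle and smooth muscle form, had means of 12.2 and 7.92 in Mfn1-/- and WT oocytes, 1.54 times the WT mean. Its gene lies at chr10:128490860-128494145 on the minus strand of GRCm38, next to Myl6b. Of its 618 windows of 75 bases, 199 (32.2%) occurred in one or more of 5 processed pseudogenes. Their best matches covered 381 to 427 of its 474 coding bases, at 97.4 to 99.2% identity over the matched part. The means of Gm5526 and Gm10080, both shorter than the Myl6 transcript of 692 bases, were above that of Myl6 itself. Gm5526 on chromosome 1 had 42.7 in Mfn1-/- and 26.7 in WT oocytes, Gm10080 on chromosome 9 had 19.5 and 8.92, and Gm8894 on chromosome 14 had 10.5 and 6.36. The other copies, Gm11836 (1.13 and 0.372) and Gm5915 (0.518 and 0.147), were lower.

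All 5 copies had the higher mean in Mfn1-/- oocytes, as Myl6 did. Together they summed to 74.3 and 42.5 in Mfn1-/- and WT oocytes, 1.75 times the WT sum, and with Myl6 to 86.5 and 50.4, 1.72 times. Reads of Myl6 mRNA and reads of its copies cannot be told apart over the shared windows, so the level of Myl6 and its rank under Myl12a depend on how the authors' counting split them. The copies were looked up after the values of Myl6 were seen.

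**Figure D3:**
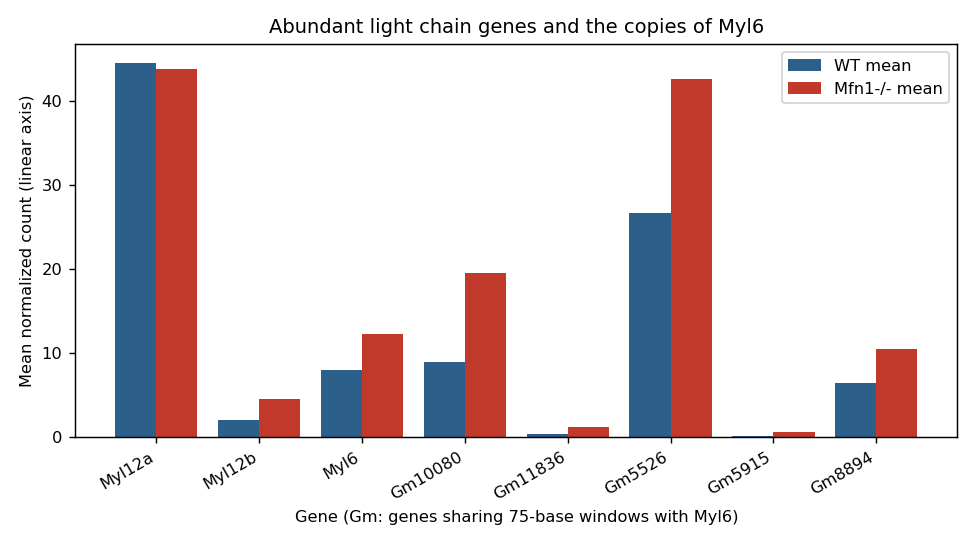
Mean normalized count (linear axis from 0) in WT and Mfn1-/- oocytes of Myl12a, Myl12b, Myl6 and the 5 processed pseudogenes that share sequence windows with Myl6. The bars of Myl12a are nearly level at 44.6 and 43.8, while Myl12b, Myl6 and each copy have the higher bar in Mfn1-/- oocytes.

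The other essential light chains were low. Myl4, the atrial and embryonic muscle form at chr11:104550663-104595753, had means of 0.0738 and 0.179 in Mfn1-/- and WT oocytes. That is 0.412 times the WT mean, but with the pseudocount its log2 difference was −0.68 and it was not past 2-fold. Exons of Myl4 overlap Gm22000 on the opposite strand. Gm22000 was far above Myl4 and also lower in Mfn1-/- oocytes, at 2.39 against 3.08 in WT. Because the libraries carry no strand information, reads from that overlap could belong to either gene, and their part in the Myl4 values was not tested. Myl6b, which is expressed with slow skeletal and nonmuscle myosin, had 0.0260 and 0.0337. Without Myl12a, the light chains summed to 17.0 and 10.3 in Mfn1-/- and WT oocytes, and Myl6 and Myl12b made up most of both sums.

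Heavy chains were scarce beside the light chains, with a sum of 1.19 in Mfn1-/- and 2.38 in WT oocytes. The nonmuscle heavy chains, which form the contractile cortex and cleavage furrow of nonmuscle cells, were all close to 0.1. Myh9 (nonmuscle IIA) had means of 0.0945 and 0.0876 in Mfn1-/- and WT oocytes. Myh10 (nonmuscle IIB) had 0.0772 and 0.108, and Myh14 (nonmuscle IIC) had 0.0822 and 0.122. Their log2 differences were 0.05, −0.23 and −0.29, so none of the 3 was near 2-fold, and they summed to 0.254 and 0.318 in Mfn1-/- and WT oocytes. Myh9 had the highest mean of the 3 in Mfn1-/- oocytes and the lowest in WT oocytes, and the direction of its difference turned with the median subtracted.

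Myh2, the heavy chain of fast oxidative (IIA) skeletal fibres, was the heavy chain gene with the highest mean, at 0.704 in Mfn1-/- and 1.56 in WT oocytes. The WT mean was 2.22 times the Mfn1-/- mean, a log2 difference of −1.05. It was −1.21 with the median subtracted and −1.16 with equal sums. Both rescalings lower every log2 difference, so a gene already past 2-fold with a lower mean had to stay past it. With a pseudocount of 1 the log2 difference of Myh2 was −0.59, short of 2-fold. Myh2 lies at chr11:67171027-67197517 in a cluster of skeletal heavy chain genes, of which 5 were measured, spanning 293 kb. Its neighbours, whose transcripts are of like length, were far lower. Myh3, the embryonic form, had means of 0.0282 and 0.0660 in Mfn1-/- and WT oocytes. Myh4, the fastest (IIB) form, had 0.0186 and 0.0266. Myh1 (IIX) had 0.0153 and 0.0130, and Myh13, the extraocular form, had 0.0112 and 0.0106.

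**Figure D4:**
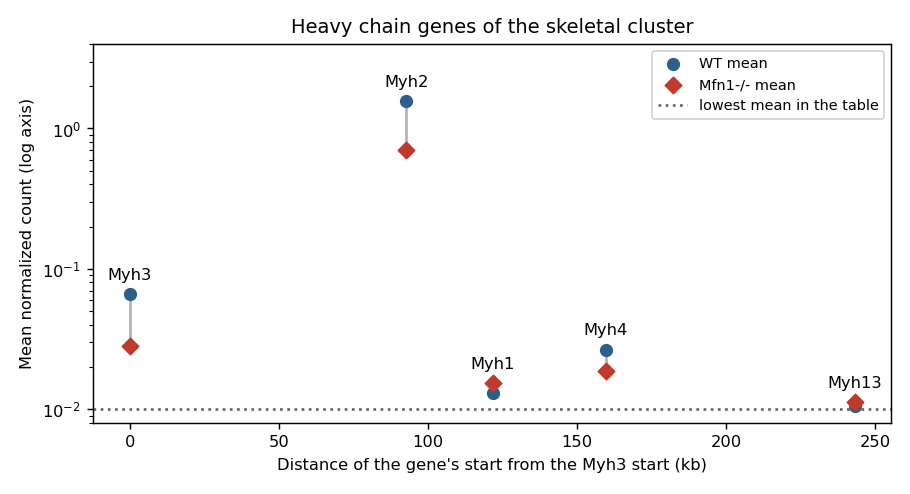
Mean normalized count (log axis) of the 5 measured genes of the skeletal heavy chain cluster against the distance of each gene's lower coordinate from that of Myh3, in kb, for WT and Mfn1-/- oocytes. Myh2, at 92.7 kb, lies above its neighbours in both genotypes, and Myh1 and Myh13 lie close to the lowest mean in the table.

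Myh2 and Myh1 share 755 windows of 75 bases, and 16.3% of the windows of Myh2 occurred in another gene. How the authors' counting split reads of these windows was not tested. The markers of skeletal and heart muscle were listed to read beside Myh2 and Myl4. Of the 9 listed, 6 had a row, with 2 higher and 4 lower in Mfn1-/- oocytes and 0 past 2-fold, and they summed to 0.619 and 1.04 in Mfn1-/- and WT oocytes. The fast skeletal light chain Mylpf, which pairs with the Myh2 product in muscle and falls outside the symbol rule, had 0.223 and 0.508. Myoglobin (Mb) had 0.0625 and 0.210, and the skeletal actin gene Acta1 had 0.01, the lowest value in the table, and 0.0358. Titin (Ttn) had nearly level means of 0.177 and 0.191, creatine kinase (Ckm) had 0.0157 and 0.0156, and Tnnt1 had 0.131 and 0.0808. The part of these muscle genes in the Myh2 and Myl4 results was not tested.

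Myh11, the smooth muscle heavy chain at chr16:14194535-14291372 on the minus strand, had means of 0.0879 and 0.305 in Mfn1-/- and WT oocytes. The WT mean was 3.47 times the Mfn1-/- mean, and with the pseudocount the log2 difference was −1.11. None of its 6376 windows occurred in another gene. The smooth muscle and theca markers, of which 7 of 10 had a row, summed to 1.79 and 3.41 in Mfn1-/- and WT oocytes, with 4 higher and 3 lower. Among them, the smooth muscle actin gene Actg2 had 0.0621 and 0.229 and was past 2-fold lower, and calponin (Cnn1), which carried most of both sums, had 1.56 and 3.01. Without Cnn1 the other 6 summed to 0.235 and 0.395. Smoothelin (Smtn) had 0.0272 and 0.0122, and the theca enzyme Cyp17a1 had 0.0372 and 0.0282. Their part in the Myh11 result was not tested. In pooled oocytes, a smaller amount of RNA from other cells and less RNA per cell cannot be told apart.

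The cardiac and remaining heavy chains were near the bottom of the table. Myh6 and Myh7, the alpha and beta cardiac forms, had means of 0.0114 and 0.0169 in Mfn1-/- and of 0.0133 and 0.0321 in WT oocytes. Myh7b had 0.0310 in Mfn1-/- and 0.0172 in WT oocytes, and Myh15 had 0.0116 and 0.0156. Exons of Myh7b overlap the opposite-strand gene Trpc4ap, which had 1.10 and 1.12, far above Myh7b. With no pseudocount, Myh3 (0.427 times the WT mean) and Myl4 also passed 2-fold, so that 5 members did so, and 21% of all genes passed in that setting.

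None of the 23 unconventional myosins was past 2-fold, and none had a mean of at least 1 in either genotype. Of these, 14 had a mean under 0.1, where 1.69% of all genes were past 2-fold, and 9 had a mean from 0.1 to 1, where 13.8% were. They summed to 2.76 and 3.09 in Mfn1-/- and WT oocytes, with 10 higher and 13 lower. Class I myosins, single-headed motors that link membranes to actin, had the highest mean with Myo1c, at 0.383 in Mfn1-/- and 0.471 in WT oocytes. Myo1a, known from the intestinal brush border, had 0.211 and 0.252, and Myo1e had 0.0212 and 0.0363. Of the 6 class I genes, 4 had the lower mean in Mfn1-/- oocytes and the median log2 difference was −0.17. Those with the higher mean were Myo1h (0.0669 and 0.0582) and Myo1d (0.0281 and 0.0244), and both turned with the median subtracted. Exons of Myo1h overlap the opposite-strand gene Kctd10, which had 2.40 and 3.70, far above Myo1h.

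Class V myosins are the vesicle transporters. Myo5b, the form that binds Rab11a, had means of 0.369 and 0.408 in Mfn1-/- and WT oocytes. Myo5a, which carries melanosomes in pigment cells, had 0.127 and 0.173, and Myo5c had 0.0118 and 0.0134. All 3 had the lower mean in Mfn1-/- oocytes, with log2 differences from −0.27 to −0.02, and Myo5c was close to the lowest mean in the table.

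Myo19, the myosin that sits on the outer mitochondrial membrane and moves mitochondria on actin, had means of 0.303 and 0.411 in Mfn1-/- and WT oocytes. Its log2 difference of −0.34 was the lowest among the unconventional myosins and fell short of 2-fold. Its exons overlap those of Znhit3 and Pigw on the opposite strand. Znhit3 had means of 30.4 and 16.3, far above Myo19 and with the higher mean in Mfn1-/- oocytes, and Pigw had 0.478 and 0.339. The library kit does not mark strand, so reads in the overlap cannot be assigned to Myo19 or its partner.

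Other unconventional myosins with a mean over 0.1 differed little. Myo10, which builds filopodia and binds spindle microtubules, had means of 0.345 and 0.342 in Mfn1-/- and WT oocytes. Myo18a, a Golgi-associated myosin, had 0.240 and 0.211. Myo9b, a motor with a GTPase-activating domain, had 0.213 and 0.162, and its log2 difference of 0.26 was the highest in the class. Exons of Myo9b overlap the opposite-strand gene Haus8, which had 8.33 and 6.06. Myo6, the motor that walks toward the minus end of actin, had 0.0879 and 0.115.

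The remaining 9 unconventional genes outside class I and V, including the hearing-related Myo7a, Myo15, Myo3a and Myo3b, had means of at most 0.103. Myo7a had 0.0648 in Mfn1-/- and 0.0708 in WT oocytes, and Myo9a had 0.0793 and 0.103. The lowest means were those of Myo3b (0.0103 and 0.0102) and Myo18b (0.0103 and 0.01). Myo7b had 0.0342 and 0.0173, a ratio of 1.98 at a level where its log2 difference with the pseudocount was 0.19. In all, 15 of the 44 members overlap exons of a gene on the opposite strand, and 13 share at least 1 window of 75 bases with another gene.

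The genes that switch, assemble or load myosin were read from 6 lists, of which 55 of 57 genes had a row and Smyd1 and Cald1 were not analysed here. Of these, 2 were past 2-fold (3.64%, against 7.61% of all genes), 27 had a higher and 26 a lower mean in Mfn1-/- oocytes, and the median log2 difference was 0.00. Rhoc, a small GTPase, had means of 0.328 and 0.0883 in Mfn1-/- and WT oocytes, a log2 difference of 1.18. Spire1, the actin nucleator, had 0.342 and 0.809, a log2 difference of −1.04. With the median subtracted or the sums made equal, calponin (Cnn1) also passed, so that 3 regulators did so in both. In those settings 7.58% and 7.19% of all genes passed.

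The kinases and phosphatase that set the phosphorylation of the regulatory light chain had 0 of 12 and 0 of 8 genes past 2-fold. Among the kinases, Dapk3 was highest, with 9.06 in Mfn1-/- and 7.54 in WT oocytes, while Rock1 had 0.932 and 1.24 and Stk38 had 0.501 and 0.452. Smooth muscle light chain kinase, Mylk, was near the lowest mean in the table, at 0.0109 and 0.0107. In the phosphatase list, the inhibitor Ppp1r14b had 4.03 in both genotypes, and Ppp1r14d had 0.521 and 0.568. The targeting subunit Ppp1r12a had 0.384 and 0.651, a log2 difference of −0.63.

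Of the 10 genes of the small GTPase switch and cytokinesis, 5 were higher, 5 lower and 1 past 2-fold. The most abundant were Kif23 (5.74 in Mfn1-/- and 7.35 in WT oocytes), Rhoa (2.56 and 2.16) and Racgap1 (2.10 and 2.31). The myosin chaperone Unc45a had 0.165 and 0.0741, a log2 difference of 0.61, while the general chaperones Hsp90aa1, at 125 in both genotypes, and Hsp90ab1, at 45.1 and 41.0, differed little. Unc45b, the striated muscle chaperone, had 0.0121 and 0.01.

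Among the 12 partners of class V myosins and calmodulins, which serve unconventional myosins as light chains, 5 were higher, 7 lower and 1, Spire1, was past 2-fold. Calm2 had 42.4 in Mfn1-/- and 44.6 in WT oocytes, Rab11a had 11.9 and 10.9, and Rab11b had 3.89 and 2.23. The actin nucleators of the vesicle network all had the lower mean in Mfn1-/- oocytes, with Spire2 at 0.128 and 0.225 and Fmn2 at 0.101 and 0.152 beside Spire1. Of the 9 tropomyosins and filament-side regulators, 0 were past 2-fold. Cnn3 had 8.88 and 9.60, Cnn1 had a log2 difference of −0.91 (−1.06 with the median subtracted and −1.03 with equal sums), and Tpm3 had 1.54 and 0.763, a log2 difference of 0.93.

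**Figure D5:**
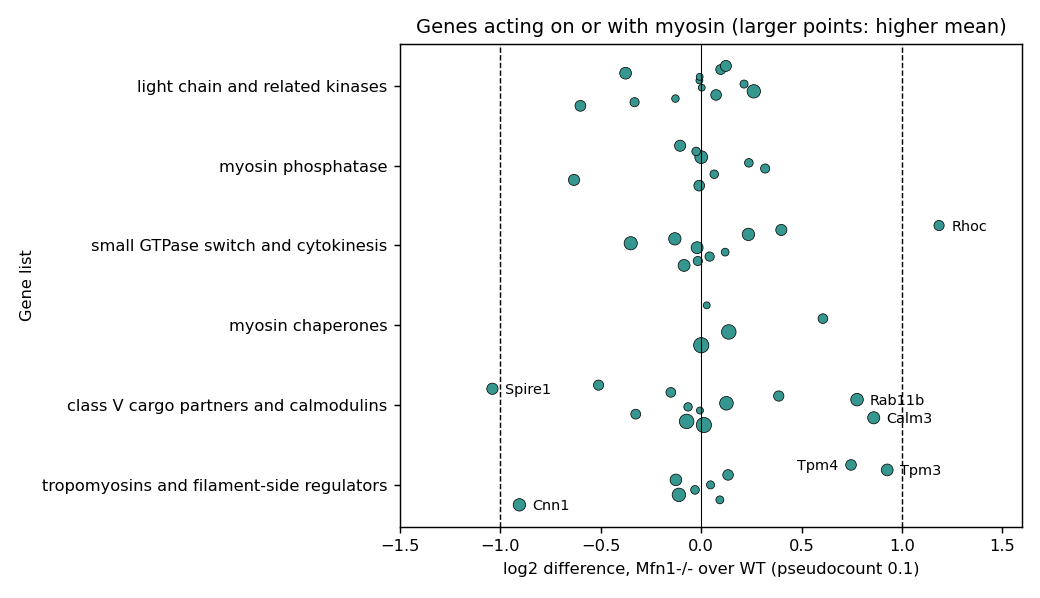
Log2 difference between Mfn1-/- and WT means (pseudocount 0.1) of each gene in 6 lists of myosin regulators and partners, with larger points for a higher mean and dashed lines at 2-fold. Rhoc lies past the upper line and Spire1 past the lower one, with the other 53 genes between.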

How the data were processed

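RNA of secondary follicle-enclosed oocytes was profiled by Smart-Seq2, which primes poly(A) RNA, with Nextera XT libraries and paired reads of 75 bases. Per the paper's methods, the authors used Cutadapt for trimming, filtered by quality, aligned with STAR to GRCm38/mm10, counted on genes and compared genotypes with DESeq2. The annotation and the scaling of the counts are not given in the sources used here. Per genotype, the signal in the table the authors deposited is the mean normalized count of each gene, written to 3 significant digits, with the total over libraries. Its other columns hold the authors' own comparison (ratio, signed fold change, p-value and FDR) and were not used. There were 0 unused columns of per-sample values.

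The members and lists were chosen with earlier results of these data known. A replicate test needs values of single libraries, so a description was given instead. It held log2 of the genotype means after a pseudocount of 0.1, counts past 2-fold, and the same share over all 22877 genes. Sums and medians were taken over gene means. The mean over libraries was weighted by 3 and 4 libraries. Depth per library is unknown, so no interval is given. The count past 2-fold was checked on WT means of at least 1 multiplied by set factors beyond 2-fold, without noise. This checks the arithmetic of that count only, and neither low genes nor the other steps.

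Genes named were members with a mean of at least 1, members past 2-fold with or without the pseudocount, extremes of each class, and from each regulator list those past 2-fold and the 3 most abundant. The values of some genes are not reported here. Further members and regulators, marker genes, the copies of Myl6 and the genes overlapping members were named after their values were seen. Positions, transcripts and coding sequences came from GENCODE M21 (GRCm38), where all 44 members were found. Each window of 75 bases of a member's transcript was searched, exactly and in the sense orientation, in the transcripts of all other genes. Promoters were RefSeq windows on GRCm38.p6 from 250 bases before to 50 after each start. Alternatives were other pseudocounts, no pseudocount, rescaling by the median of expressed genes or by equal sums, minimum means, a fold of 1.5 and, chosen after seeing the data, protein-coding genes only. Python 3.11.15, numpy 2.4.6, pandas 2.3.3, Biopython 1.88 and matplotlib 3.10.9 were used.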

Additional observations from a re-analysis of the deposited data

How the results depend on the processing

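The count of 3 members past 2-fold became 4 with a pseudocount of 0.01, 5 with no pseudocount, 0 with a pseudocount of 1 and 5 with a fold of 1.5, while the shares of all genes were 17.1%, 21%, 1.39% and 19.3%. Both rescalings left 2 of the 44 members, Myh11 and Myh2, against 7.58% of all genes with the median subtracted and 7.19% with equal sums. Since both rescalings lower every log2 difference, these 2 could not fall short. Protein-coding genes alone had a background of 5.46%, and minimum means of 0.1 and 1 gave backgrounds of 11.5% and 8.69%. The median of the heavy chains was −1.05 with a minimum mean of 0.1 or of 1. It was the value of Myh2 itself in both, since 3 and 1 genes remained. At 0.1 Myh11 and Myh14, and at 1 Myh2, passed the minimum only through their WT means. No conclusion on the class is drawn from this median. With a minimum mean of 1 no unconventional myosin was left. Regulators past 2-fold numbered 4 with a pseudocount of 0.01 and 4 with none, 0 with a pseudocount of 1, 0 with a minimum mean of 1 and 10 with a fold of 1.5, and both rescalings gave 3 (1 higher and 2 lower). Of 220 alternatives for single members, 205 moved the value little and 15 moved it more or across 2-fold. In 0 of them did a member past 2-fold turn to the other side, but no setting could have turned one. A pseudocount keeps the direction, and the rescalings shift values by too little. The direction of 13 other members turned in at least 1 setting. With 1 mean per genotype, replicates could not be left out and limits of depth cannot be given. No paired analysis was possible because each genotype had only 1 mean per gene here and the result comes from no test.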

Other observations

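Promoter windows were found for 38 members, in 47 entries, and searched on both strands, with overlaps between motifs allowed. The GC box (GGGCGG) occurred in 23 of the 47 windows (48.9%, against 35.7% of all 32851 windows), including those of Myl12a, Myl12b, Myl6, Myo1c and Myo19. The CCAAT box (CCAAT) occurred in 16 (34%, against 37.4%). The TATA box (TATAAA) occurred in 10 (21.3%, against 13.6%), among them Myh1, Myh2, Myh3 and Myh4 of the skeletal cluster. The CArG box, the site read by serum response factor, occurred in 6 (12.8%, against 1.63%), namely Myh13, Myh4, Myl6, Myl7, Myl9 and Myo1e. Myl6 had 2 windows, and the one nearest the start of its gene held neither a GC box nor a CArG box. A match is a description of the letters in the window. Members without an entry, Myh11 among them, were not searched.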
